A study of Mus musculus with 15 samples.

Results

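The genes described here encode collagens, laminins and other proteins of the extracellular matrix. They are 38 genes of the 23154 listed for every cell, taken by name: 6 chains of fibrillar collagens, 13 components of basement membranes, 5 other collagens, 7 genes of elastic fibres and 7 other glycoproteins and small proteoglycans. RNA was measured in single cells of mouse hearts at 4 stages, E7.75 to E9.25 in steps of 0.5 days of embryonic age. The embryos carried a Cre recombinase named for Nkx2-5 (Nkx2-5Cre) or for Isl1 (Isl1Cre), both transcription factor genes of heart progenitors, and all of them also carried the Rosa26tdTomato reporter. Each lineage and stage had 2 libraries, except Isl1Cre at E9.25 with 1. Titles give both libraries of a group the same embryo number, so a group is probably 1 embryo, the p-values measure only the spread between libraries, and a lineage or stage cannot be told apart from the embryo that stood for it. Strain and sex were not used here, and how far each Cre reaches beyond the heart field was not measured.

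The matrix is the network of secreted proteins around cells. Fibrillar collagens form cables, while collagen IV, laminins, nidogens and perlecan form the basement membrane, the thin sheet under epithelia and around muscle and vessels. In the early heart tube a gelatinous matrix separates the muscle layer from the endocardium, the inner lining, and its later remodelling accompanies the formation of valves and trabeculae.

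Of 1400 cells, 1332 were kept, 61 to 94 per library. The library totals were 8165519 to 38321142 recovered counts, and the median cell of a library had 92068 to 360929 counts. No cell name was shared by libraries. Cells were divided by 2 marker genes: 902 Tnnt2 cells (cardiac troponin T at 2000 CPM or more, where CPM is a cell's count scaled to its total, and Cdh5 under 20), 82 Cdh5 cells (VE-cadherin at 20 CPM or more and Tnnt2 under 2000), 324 under both levels, called the rest, and 24 past both, which were left out. The names were set against marker lists from which the gate's own gene was left out. After E7.75, 8 of 9 endothelial markers were seen in at least 25% of Cdh5 cells, with a summed level of 1013.0 to 1783.5 CPM per library against 16.5 to 50.1 in Tnnt2 cells. The 8 cardiomyocyte markers summed to 21128.0 to 33324.8 CPM in Tnnt2 cells and to 982.8 to 5588.3 CPM in Cdh5 cells, where all 8 were also seen in at least 25% of cells. The rest is mixed: endoderm markers reached 513.2 to 1389.7 CPM in it at E7.75, and in 1 library (Nkx2-5Cre E9.25 replicate 2, 6 cells) endothelial markers reached 1067.9 CPM.

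Promoters of 3 genes that rose with stage in both lineages are shown first. They are the windows of such genes in which the 250 bases before the start hold no annotated exon (RefSeq sequence, GRCm38.p6). Each is written 5′ to 3′ on the strand of its gene, with capitals for TATAAA or CCAAT or GGGCGG on either strand. The window of Tnc is chr4:64047016-64047265 on the minus strand, that of Col3a1 chr1:45311288-45311537 on the plus strand, and that of Emilin2 chr17:71311012-71311261 on the minus strand. The Emilin2 window precedes an inner RefSeq start and lies within the annotated gene; the window of its outer start overlaps an annotated exon and holds none of the motifs searched.
Tnc: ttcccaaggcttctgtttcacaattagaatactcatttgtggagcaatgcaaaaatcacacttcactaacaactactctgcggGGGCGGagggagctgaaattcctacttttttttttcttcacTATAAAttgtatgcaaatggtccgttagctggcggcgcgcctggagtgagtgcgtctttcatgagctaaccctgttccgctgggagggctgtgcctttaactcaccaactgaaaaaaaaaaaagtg
Col3a1: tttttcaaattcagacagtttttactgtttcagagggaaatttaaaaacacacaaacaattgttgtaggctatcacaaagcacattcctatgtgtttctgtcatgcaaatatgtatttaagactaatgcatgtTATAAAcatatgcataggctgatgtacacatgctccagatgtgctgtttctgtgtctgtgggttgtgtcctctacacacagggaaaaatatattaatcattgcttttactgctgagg
Emilin2: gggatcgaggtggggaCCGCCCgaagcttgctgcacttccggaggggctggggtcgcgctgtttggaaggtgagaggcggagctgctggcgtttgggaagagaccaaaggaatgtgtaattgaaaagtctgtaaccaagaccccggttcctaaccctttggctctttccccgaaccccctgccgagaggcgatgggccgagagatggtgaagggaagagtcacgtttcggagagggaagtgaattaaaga
TATAAA, the core of the TATA box, lay 126 bases before the start in Tnc and 117 bases before it in Col3a1. GGGCGG, a GC box, lay 167 bases before the start of Tnc and, on the other strand, 234 bases before the inner start of Emilin2. RefSeq windows from 250 bases before to 50 after a start were found for 24 of the 38 genes (31 windows). Motifs were searched only in the 250 bases before the start. Overlapping windows of the same gene, as for Tnc, each count. TATAAA was in 5 of these 31, against 12.368% of 32851 promoters. CCAAT was in 6 (33.85% of all promoters), GGGCGG in 19 (32.742%), the ETS core CCGGAA in 2 (12.03%) and the GATA motif AGATAA in none (9.988%). These are letters in a window, and no binding was measured. Col4a1 and Col4a2 lie head to head: Col4a2 on the plus strand is annotated from base 11312805 of chromosome 8 and Col4a1 on the minus strand up to base 11312889, so the genes overlap by 85 bases.

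Each level below is a library's average CPM, with every kept cell weighted alike. Reads came from 3′ ends. Levels are compared between samples and not between genes. A change is in log2(mean CPM + 1), given ± SE with limma's p-value adjusted over all genes tested (Benjamini-Hochberg, threshold 0.05). Of the 38 genes, 31 reached 5 CPM in at least 2 libraries and were tested among 10665. The other 7 were Bgn, Col9a3, Dcn, Eln, Fbln2, Lum and Postn, whose highest library means were 1.17 to 5.09 CPM. Postn, which encodes periostin of valves and mesenchyme, was at 0 in 9 libraries, at 0.14 to 1.2 CPM in 5, and at 5.09 CPM in Isl1Cre E9.25. It had a count in 15 of 1332 cells (1.13%). Dcn, a small leucine-rich proteoglycan, had a count in 5 cells, and Eln, which encodes elastin, in 36.

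With stage, more of the tested genes rose than fell in either lineage. The change is a linear slope per embryonic day over the 4 stages. In Nkx2-5Cre, 9 of 31 rose and 2 fell, where 13.2% of all genes tested rose and 11.6% fell. The median slope of the 31 was 0.19, against -0.01 over all genes. In Isl1Cre, 10 rose and 3 fell, against 13% and 10.2% of all genes, with a median of 0.25 against -0.01. The 3 that fell were Lama1, Fn1 (-0.79) and Fbn1 (-0.89). Without the Isl1Cre E9.25 library Fn1 was at -0.23 and not called. The call of Fbn1 was lost in 3 of 15 fits that left out 1 library. Col3a1, Col4a2, Emilin2, Hspg2, Lama4, Sparc and Tnc, 7 genes, rose in both lineages, and Lama1 fell in both. The 2 slopes come from separate libraries and share 1 estimate of the spread.

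**Figure D1:**
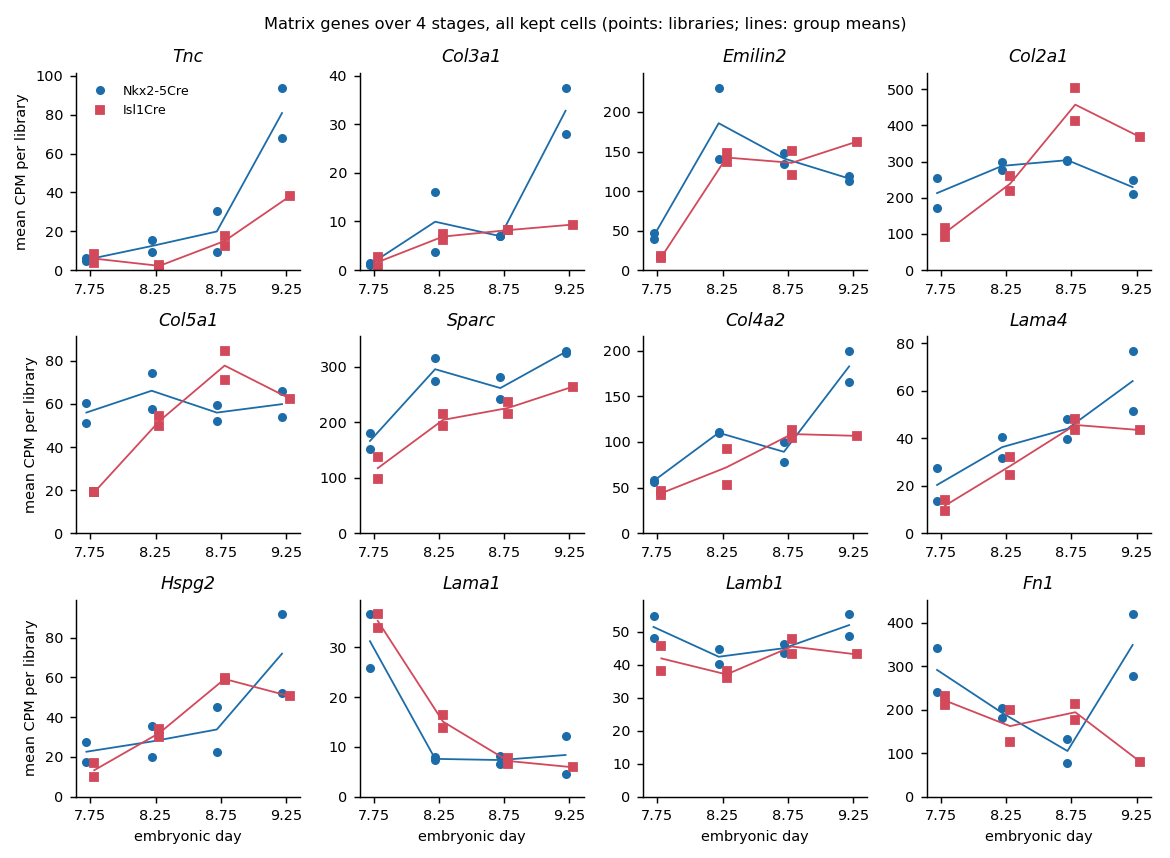
Mean CPM per library (vertical axis, from 0) against embryonic day for 12 matrix genes; circles are Nkx2-5Cre libraries, squares Isl1Cre libraries and lines join group means. Tnc climbs to 67.9 and 93.9 CPM at Nkx2-5Cre E9.25, Lama1 drops after E7.75, and Lamb1 stays between 35.9 and 55.3 CPM.

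Tnc encodes tenascin C, a glycoprotein that weakens cell adhesion at sites of remodelling. In Nkx2-5Cre it was at 6.0 and 4.7 CPM at E7.75, 9.1 and 15.7 at E8.25, 9.5 and 30.2 at E8.75, and 67.9 and 93.9 at E9.25. The Isl1Cre libraries had 8.1 and 3.7, then 1.6 and 2.8, then 12.4 and 17.6, and 38.03 CPM in the E9.25 library. The E9.25 libraries were the highest of each lineage and did not overlap any earlier one. The slope was 2.31 ± 0.31 in Nkx2-5Cre (adjusted p = 2.81e-05) and 2.04 ± 0.37 in Isl1Cre (adjusted p = 0.000517), but 1.24 with adjusted p = 0.0741 in Isl1Cre without the single E9.25 library.

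Col3a1, the chain of collagen III in vessel walls and cushions, was at 0.98 and 1.4 CPM at Nkx2-5Cre E7.75, 16.1 and 3.8 at E8.25, 7.0 and 7.0 at E8.75, and 28.1 and 37.5 at E9.25. In Isl1Cre it went from 0.57 and 2.7 CPM through 6.3 and 7.5, and 8.3 and 8.2, to 9.4. Every later library was above both E7.75 libraries of its lineage. The E7.75 libraries were all under 5 CPM, so Col3a1 entered the test only through later libraries. The slopes were 2.33 ± 0.35 (adjusted p = 8.09e-05) and 1.34 ± 0.42 (adjusted p = 0.0255), the latter 0.96 with adjusted p = 0.159 without Isl1Cre E7.75 replicate 1.
Col1a1, a chain of collagen I, was at 2.97 to 7.11 CPM in the first 6 Nkx2-5Cre libraries and at 16.8 and 9.5 at E9.25, a slope of 0.91 ± 0.27 (adjusted p = 0.019). That slope was 0.68 (adjusted p = 0.162) without replicate 1 of E9.25, and its call was also lost without either E7.75 library. The Isl1Cre values were 1.2 and 2.5 CPM, then 18.7 and 23.2, 16.4 and 14.8, and 6.7, highest in the middle stages, and no slope was called. Col1a1 too was under 5 CPM in every E7.75 library and entered the test only through later libraries.

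Sparc, a collagen-binding glycoprotein, rose from 180.9 and 151.7 CPM at Nkx2-5Cre E7.75 to 325.1 and 328.3 at E9.25, with 316.6 and 274.6, and 281.1 and 242.2 between them. In Isl1Cre it rose from 137.1 and 97.7 through 193.7 and 214.8, and 215.8 and 235.8, to 264.4 CPM. All 11 later libraries lay above the 4 at E7.75. Its slopes were 0.55 ± 0.10 (adjusted p = 0.000733) and 0.77 ± 0.12 (adjusted p = 0.000147).

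Among basement membrane genes, laminin chains went in opposite directions. Lama1, the alpha chain of the laminin of early embryonic basement membranes, was at 25.9 and 36.6 CPM at Nkx2-5Cre E7.75 and at 4.5 to 12.3 in the 6 later libraries. Isl1Cre libraries had 36.7 and 34.0, then 16.4 and 13.8, 7.8 and 6.5, and 5.9 CPM. No later library reached an E7.75 value. The slopes were -1.15 ± 0.26 (adjusted p = 0.00313) and -1.61 ± 0.31 (adjusted p = 0.000795); without Nkx2-5Cre E9.25 replicate 2 the former was -0.78 with adjusted p = 0.0583.
Lama4, the alpha chain of laminins of vessels and muscle, was at 27.3 and 13.4 CPM, 40.7 and 31.8, 48.1 and 39.7, and 51.4 and 76.6 over the Nkx2-5Cre stages. In Isl1Cre it was at 14.0 and 9.2, 32.0 and 24.5, 47.9 and 43.2, and 43.4. The E7.75 libraries were the lowest of either lineage, and the slopes were 1.05 ± 0.20 (adjusted p = 0.000814) and 1.27 ± 0.24 (adjusted p = 0.000697). Lamb1 and Lamc1, the beta and gamma chains that pair with either alpha chain, were called in neither slope. Lamb1 ranged from 35.9 to 55.3 CPM over the 15 libraries and Lamc1 from 25.4 to 55.5.

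Col4a2, a chain of the collagen IV network, rose from 58.3 and 56.2 CPM through 109.7 and 110.5, and 99.9 and 78.5, to 199.5 and 165.9 in Nkx2-5Cre (slope 0.93 ± 0.14, adjusted p = 8.53e-05). In Isl1Cre it rose from 46.2 and 41.5 through 52.8 and 91.8, and 113.0 and 104.3, to 106.7 CPM (0.91 ± 0.17, adjusted p = 0.000531). Its partner Col4a1 was at 91.0 and 78.1, 98.6 and 105.7, 58.3 and 56.5, and 92.0 and 139.7 CPM in Nkx2-5Cre, where the stages overlap and no slope was called. In Isl1Cre it was at 62.6 and 59.3, 45.9 and 63.1, 114.5 and 92.0, and 92.8, a slope of 0.57 ± 0.16 (adjusted p = 0.0158) that reached 0.0646 without Isl1Cre E7.75 replicate 2. Whether the slopes of these partner genes differ was not tested.
Hspg2, which encodes the heparan sulfate proteoglycan perlecan, was at 17.4 and 27.7, 20.1 and 35.3, 45.3 and 22.2, and 52.1 and 91.7 CPM in Nkx2-5Cre (1.02 ± 0.24, adjusted p = 0.00408). Isl1Cre values were 16.9 and 9.6, 34.0 and 30.0, 59.5 and 58.8, and 50.5 CPM (1.34 ± 0.28, adjusted p = 0.00184). The Nkx2-5Cre call was lost without E7.75 replicate 1 (0.78, adjusted p = 0.0602) or E9.25 replicate 2 (0.76, adjusted p = 0.0744), and the Isl1Cre slope was 2.09 without the E9.25 library. Nid2, one of the nidogens that join laminin to collagen IV, rose in Nkx2-5Cre (0.65 ± 0.20, adjusted p = 0.0255), and Agrn, which encodes agrin, fell there (-0.43 ± 0.14, adjusted p = 0.0358); each lost its call when single libraries were left out.

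With the 4 E7.75 libraries left out, which leaves 3 stages, 1 of the 11 calls in Nkx2-5Cre remained, Tnc at 2.64 (adjusted p = 0.013), and 2 of the 13 in Isl1Cre, Tnc at 3.74 and Col2a1 at 0.73. The direction then turned for Emilin2 (-0.64), Nid2 (-0.16) and Agrn (0.02) in Nkx2-5Cre and for Fbn1 (0.43) in Isl1Cre. Lama1 (-0.01) and Sparc (0.15) were near 0 in Nkx2-5Cre. Some other slopes stayed within 1.5 times those reported but were not called: Col3a1 at 1.88, Hspg2 at 1.34, Col1a1 at 0.88, Lama4 at 0.78 and Col4a2 at 0.72 in Nkx2-5Cre, and Fn1 at -0.88, Lama1 at -1.13 and Col4a2 at 0.71 in Isl1Cre. The remaining Isl1Cre rises were not called either. Emilin2 (0.29), Col5a1 (0.36), Sparc (0.47), Col3a1 (0.49), Lama4 (0.71) and Hspg2 (0.74) shrank by more than 1.5 times, and Col4a1 was larger at 0.88. The cell makeup moved with stage too: Tnnt2 cells were 17.78% to 41.76% of a library at E7.75 and 60.22% to 96.7% later. Slopes within Tnnt2 cells alone are given after the lineage comparisons.

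Col2a1, Emilin2 and Col5a1 changed at different rates in the lineages. The Isl1Cre slope exceeded the Nkx2-5Cre slope for 3 of the 31 genes and was smaller for none, against 1.88% and 0.694% of all genes. Col2a1, the chain of collagen II best known from cartilage, was at 254.1 and 171.8 CPM at Nkx2-5Cre E7.75, 277.3 and 299.2, 303.0 and 305.0, and 209.6 and 249.4 at the later stages. In Isl1Cre it was at 90.6 and 115.5 CPM at E7.75, 218.7 and 258.9 at E8.25, 504.1 and 411.1 at E8.75, and 367.3 at E9.25. Both Isl1Cre E8.75 libraries exceeded every Nkx2-5Cre library, and both Isl1Cre E7.75 libraries lay below every other library. The slope was 0.10 ± 0.14 in Nkx2-5Cre (adjusted p = 0.567) and 1.31 ± 0.13 in Isl1Cre (adjusted p = 6.19e-07), and the difference was 1.22 ± 0.17 (adjusted p = 0.000336).
Emilin2, an elastin-associated glycoprotein, rose in both lineages. It went from 38.9 and 46.5 CPM to 230.6 and 141.0, then 147.7 and 134.7, and 118.5 and 113.2 in Nkx2-5Cre. In Isl1Cre it went from 14.7 and 18.0 to 136.3 and 148.4, then 120.8 and 150.6, and 162.5 CPM. The E8.25 libraries were already at least 3 times any E7.75 library of their lineage, and the difference between slopes was 1.18 ± 0.22 (adjusted p = 0.00472). Col5a1, a chain of collagen V that starts collagen fibrils, was at 51.4 to 74.4 CPM in the 8 Nkx2-5Cre libraries without order by stage. In Isl1Cre it was at 19.0 and 19.1 at E7.75, then 49.8 and 54.4, 71.0 and 84.5, and 62.5. Its slope was 0.01 in Nkx2-5Cre (adjusted p = 0.958) and 1.14 ± 0.16 in Isl1Cre (adjusted p = 3.92e-05), a difference of 1.13 ± 0.21 (adjusted p = 0.00503). Within Tnnt2 cells the 3 differences were 0.76, 0.81 and 1.14, with adjusted p of 0.121, 0.151 and 0.126; there 1 of 30 genes had a larger Isl1Cre slope and none a smaller one, against 0.542% and 0.114% of all genes, and that gene was Col4a1 (1.20 ± 0.26, adjusted p = 0.0404). Over all cells without the E7.75 libraries, the difference of Col2a1 was still called (1.06, adjusted p = 0.0287), and those of Emilin2 (0.93, adjusted p = 0.188) and Col5a1 (0.50, adjusted p = 0.55) were not. Without the single Isl1Cre E9.25 library the 3 differences were 2.02, 2.17 and 1.94 in the same order, and the Isl1Cre slopes of these genes were 2.11, 2.94 and 1.94.

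Cdh5 cells and Tnnt2 cells held different matrix RNAs: fibronectin, nidogen-1 and collagens IV and XVIII were higher in Cdh5 cells, collagen II and EMILIN-2 in Tnnt2 cells. In the 2 libraries with at least 10 Cdh5 cells (Nkx2-5Cre E8.25 replicate 2 and E9.25 replicate 2), 14 of 30 tested genes were higher in Cdh5 cells and 3 lower, where 6.35% of 9387 genes were higher and 8.97% lower. With a minimum of 5 cells, 9 libraries entered and 15 of 33 genes were higher and 9 lower, against 11.3% and 18.9% of 11314 genes; all 17 calls of the smaller comparison were among these 24. A gene low in 1 class could enter only through the class where it was high. Of the 15 higher genes, 12 also reached 5 CPM in at least 2 Tnnt2 classes, which Bgn, Col26a1 and Fbln2 did not. Of the 9 lower genes, 6 reached it in at least 2 Cdh5 classes, which Col1a1, Col6a1 and Lamb2 did not. In the 2-library comparison 9 of the 14 higher and 2 of the 3 lower genes reached it in both libraries in the class where they were lower. Where one of those 6 genes is described below, its levels stand with no test. Leaving out each of the 9 libraries in turn kept 22 to 24 of the 24. Differences and Cdh5 levels below are from the 9 libraries, while the ranges and medians of Tnnt2 cells are over all 15. The median counts per cell were 117252 in Tnnt2 cells and 112703.5 in Cdh5 cells.

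**Figure D2:**
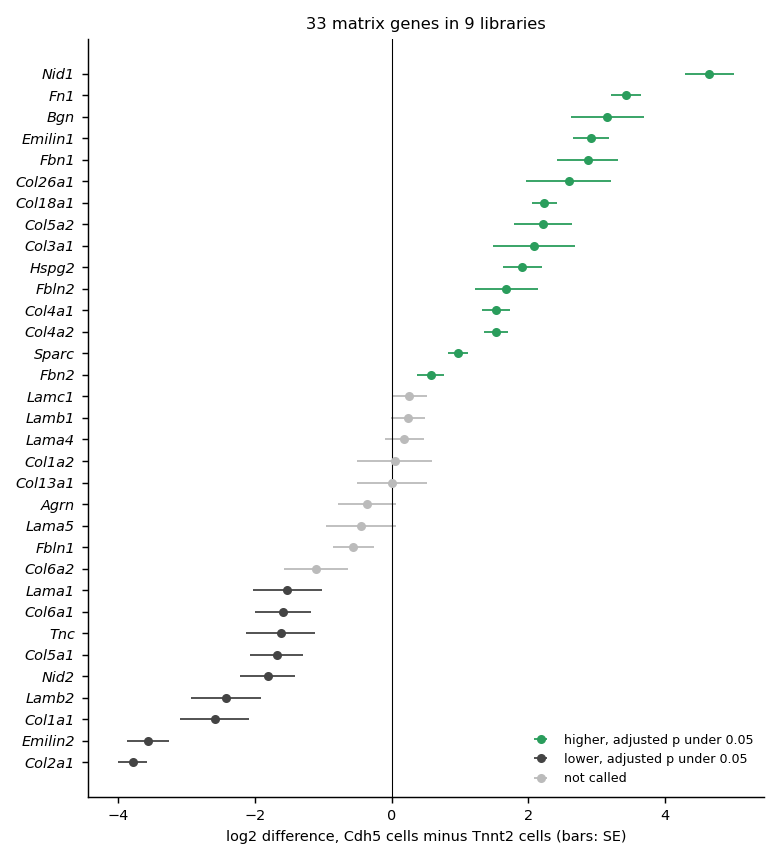
The log2 difference between Cdh5 cells and Tnnt2 cells (horizontal axis, bars are the SE) for the 33 matrix genes tested in 9 libraries, ordered by size and coloured by call; Bgn, Col26a1, Fbln2, Col1a1, Col6a1 and Lamb2 reached the tested level only through the class where they were higher. Nid1 at 4.65 and Fn1 at 3.43 stand at the top, and Col2a1 at -3.79 and Emilin2 at -3.57 at the bottom.

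Fn1 encodes fibronectin, the glycoprotein on which other matrix is laid down. It was at 438.65 to 1503.71 CPM (median 1112.59, 9 libraries) in Cdh5 cells and at 43.84 to 195.82 CPM (median 91.74, 15 libraries) in Tnnt2 cells. The classes did not overlap, and the difference was 3.43 ± 0.22 (adjusted p = 1.7e-11). Nid1, which encodes nidogen-1, was at 16.33 to 229.77 CPM (median 154.21) against 0.00 to 23.58 (median 2.97), overlapping only through the 5 Cdh5 cells of Isl1Cre E7.75 replicate 1, with a difference of 4.65 ± 0.36 (adjusted p = 4.38e-10). Col18a1, the basement membrane collagen from which endostatin is cut, was at 306.54 to 1894.89 CPM (median 1226.55) against 126.49 to 346.48 (median 216.07), a difference of 2.24 ± 0.19 (adjusted p = 1.8e-09).

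Both collagen IV chains were higher. Col4a1 was at 36.71 to 481.98 CPM (median 241.4) in Cdh5 cells against 28.12 to 93.83 (median 73.0), and Col4a2 at 68.82 to 413.59 (median 295.56) against 34.72 to 170.99 (median 85.53). Both differences were 1.52, with SE of 0.20 and 0.17 and adjusted p of 3.15e-06 and 3.25e-07. In the 2 libraries with at least 10 Cdh5 cells they were 2.52 for Col4a1 and 1.42 for Col4a2, and whether the chains differ was not tested. Hspg2 was at 53.84 to 289.9 CPM (median 131.25) against 0.17 to 60.71 (median 27.31), higher by 1.91 ± 0.28 (adjusted p = 1.35e-05). No laminin chain was called higher: Lamb1 (0.24 ± 0.25, adjusted p = 0.508), Lamc1 (0.26 ± 0.26, adjusted p = 0.488) and Lama4 (0.19) were not called, while Lama1 (-1.53 ± 0.51, adjusted p = 0.025) was lower, and Nid2 went opposite to Nid1 (-1.81 ± 0.40, adjusted p = 0.0013). Lamb2 had a median of 3.05 CPM in Cdh5 and 16.81 in Tnnt2 cells.

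Fibrillar collagens were called in both directions. Col3a1 was at 0 CPM in both Cdh5 classes of E7.75 and at 9.13 to 175.64 in the 7 later ones, highest with 175.6 and 162.2 at Nkx2-5Cre E9.25. In Tnnt2 cells it stayed at 0.42 to 9.58 CPM, and the difference was 2.08 ± 0.60 (adjusted p = 0.01). Col5a2 was higher by 2.21 ± 0.43 (adjusted p = 0.000312), while its trimer partner Col5a1 was lower by 1.68 on the log2 scale (SE 0.39, adjusted p = 0.00174); both have a Cdh5 range that overlaps the Tnnt2 range. Col1a1 was at 0 CPM in 7 of the 9 Cdh5 classes and at 6.7 and 2.7 in those of Nkx2-5Cre E9.25, against a median of 6.92 in Tnnt2 cells. Col2a1 was at 10.47 to 40.36 CPM (median 25.4) in Cdh5 cells and at 179.2 to 577.24 (median 314.62) in Tnnt2 cells. No library overlapped, and the difference was -3.79 ± 0.21 (adjusted p = 9.92e-13).

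Of the 7 elastic fibre genes, Emilin1, Fbn1 and Fbn2 were higher in Cdh5 cells, Emilin2 was lower, Fbln1 (-0.56, adjusted p = 0.168) was not called and Eln was not tested. Fbln2 had a median of 3.4 CPM in Cdh5 cells and 0.14 in Tnnt2 cells. The call of Fbn2 in the 2-library comparison was lost in 4 of 12 alternatives. Emilin1 was at 74.52 to 193.32 CPM against 5.02 to 30.41 (2.92 ± 0.26, adjusted p = 6.72e-09), and the fibrillin gene Fbn1 at 34.45 to 159.91 against 1.58 to 57.88 (2.87 ± 0.45, adjusted p = 2.5e-05). Emilin2 went the other way, at 0.00 to 26.22 CPM against 31.14 to 255.93 in Tnnt2 cells, with no overlap (-3.57 ± 0.30, adjusted p = 2.97e-09). The EMILIN genes were highest in different classes of the same hearts. Sparc was higher by 0.97 ± 0.15 (adjusted p = 2.07e-05) at 113.24 to 667.99 CPM against 89.47 to 324.76. Tnc was lower (-1.63 ± 0.51, adjusted p = 0.0183). Bgn, the small proteoglycan biglycan that missed the level needed over whole libraries, had a median of 11.24 CPM in Cdh5 cells and 0.07 in Tnnt2 cells.

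**Figure D3:**
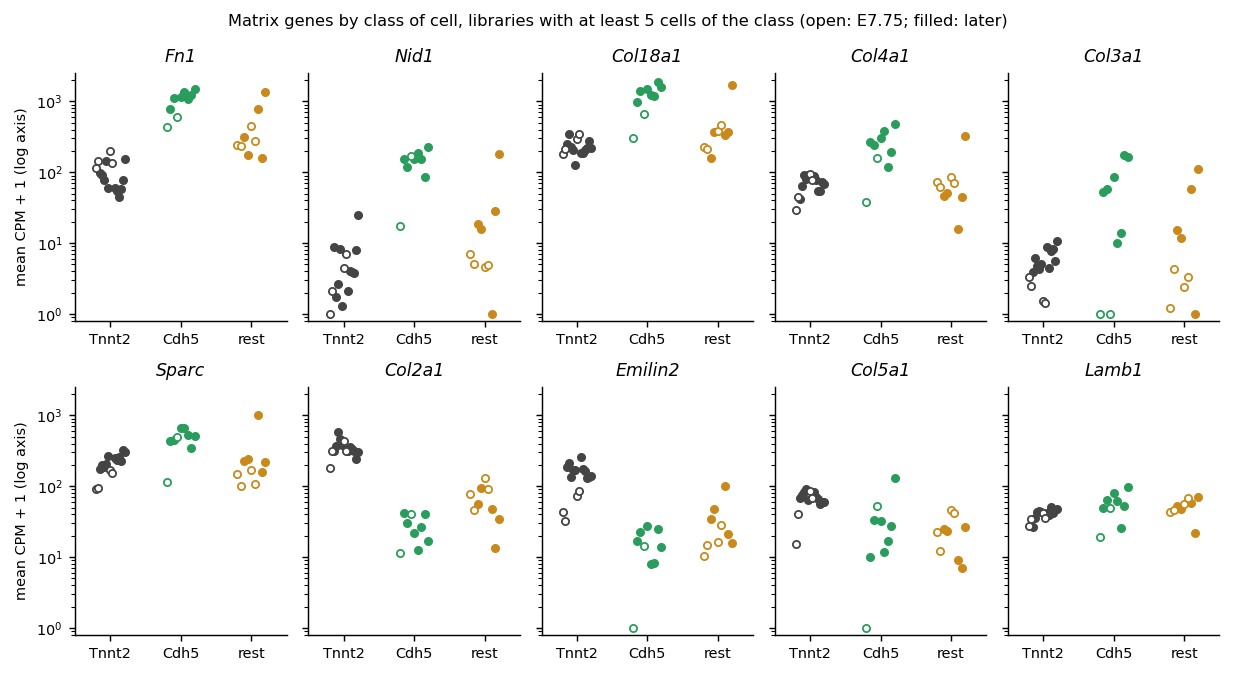
Mean CPM + 1 per library (log axis) in Tnnt2 cells, Cdh5 cells and the rest for 10 matrix genes, in libraries with at least 5 cells of the class; open circles are E7.75 and filled circles later stages. Fn1 and Nid1 sit high in Cdh5 cells, Col2a1 and Emilin2 in Tnnt2 cells, and Lamb1 overlaps in all 3.

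Detection per cell at equal depth went the same way for Fn1, Nid1 and Col2a1. Later cells with at least 5000 counts were thinned to that depth and the others left out. These were 66 of 66 Cdh5 cells, 757 of 791 Tnnt2 cells and 92 of 94 of the rest. Fn1 was then seen in 98.48% of Cdh5 cells (exact 95% binomial interval 91.84% to 99.96%), in 25.36% of Tnnt2 cells (22.3% to 28.62%) and in 64.13% of the rest (53.46% to 73.87%). Nid1 was seen in 51.52% (38.88% to 64.01%), 1.59% (0.82% to 2.75%) and 9.78% (4.57% to 17.76%). Collagen II RNA had the reverse order: Col2a1 was in 12.12% (5.38% to 22.49%) of Cdh5 cells, 70.28% (66.88% to 73.51%) of Tnnt2 cells and 26.09% (17.48% to 36.29%) of the rest. Unthinned, Col2a1 was in 92.42% of Cdh5 and 96.59% of Tnnt2 cells. Myl7, a myosin light chain gene of heart muscle, was likewise seen in 100% of later Cdh5 cells, at 1328.88 CPM against 11190.25 in Tnnt2 cells, and whether such RNA was carried over between barcoded cells was not tested. Not every called gene was so clear once thinned. Lama1 and Tnc, both called lower in Cdh5 cells, were seen in 4.55% and 7.58% of later Cdh5 cells. In later Tnnt2 cells they were seen in 3.7% and 10.44%. In the 2-library comparison, 6 of the 17 calls remained after thinning. The intervals cover counting error only.

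The rest was also set against Tnnt2 cells. In 6 libraries (all 4 of E7.75 and both of Isl1Cre E8.25), 2 of 31 genes were higher and 5 lower, where 6.29% of 10417 genes were higher and 7.11% lower. Col2a1 (-2.06 ± 0.16, adjusted p = 1.15e-07) and Emilin2 (-2.03 ± 0.19, adjusted p = 1.43e-06) were again lower, with Lama4 (-1.45), Col5a1 (-1.05) and Nid2 (-0.91). The Nid2 call was lost in 5 of the 6 fits that left out 1 library, that of Lamb1 in 4 and that of Col5a1 in 1. At E7.75, Fn1 was at 448.1 and 274.6 CPM in the rest of Nkx2-5Cre against 195.8 and 134.2 in Tnnt2 cells, and at 245.0 and 231.8 against 112.2 and 144.4 in Isl1Cre. The rest was the higher class in each library, by 1.03 ± 0.12 over the 6 libraries (adjusted p = 1.33e-05). Lamb1 was higher by 0.56 ± 0.17 (adjusted p = 0.0326), which turned to -0.17 with Tnnt2 cells set at 4000 CPM. Endoderm markers in the rest were at 513.2 to 1389.7 CPM at E7.75, and their part in these differences was not tested.

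Between lineages, every matrix gene called over the average of the 4 stages was lower in Isl1Cre. These were 6 of 31 genes, and none was higher, where 3.68% of all genes were lower and 3.68% higher. They were Fbn1 (-1.21 ± 0.20, adjusted p = 0.00131), Nid1 (-1.19 ± 0.33, adjusted p = 0.0364), Col5a2 (-0.94 ± 0.26, adjusted p = 0.0319), Col18a1 (-0.58 ± 0.09, adjusted p = 0.000919), Fn1 (-0.43 ± 0.13, adjusted p = 0.0481) and Sparc (-0.36 ± 0.09, adjusted p = 0.0145). Not every stage had this direction. At E8.75 the Isl1Cre mean was the higher for Fn1 (194.24 against 104.9 CPM), Nid1 (16.17 against 10.98) and Col18a1 (319.83 against 266.73). It was the lower there for Fbn1, Col5a2 and Sparc. Without the single Isl1Cre E9.25 library, Fn1 was at 0.10, Nid1 at -0.24, Col5a2 at -0.51 and Col18a1 at -0.20, none of them called, while Fbn1 and Sparc kept their calls. With any 1 of the 15 libraries left out, the call of Fn1 was lost in 11 fits, that of Nid1 in 10, that of Col5a2 in 9 and that of Col18a1 in 1. All 6 genes, those that kept their calls included, were higher in Cdh5 than in Tnnt2 cells. Of the matrix genes tested between these classes in 9 libraries, 15 were called higher in Cdh5 cells, 9 lower and 9 neither. Sparc was also called lower in Isl1Cre within Tnnt2 cells alone, as given below. The part of the cell makeup in these lineage differences was not tested.

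At E9.25, Fn1, Nid1, Col18a1 and Fbn1 differed between the lineages. None of 31 was higher in Isl1Cre and 4 were lower, against 0.422% and 0.553% of all genes. Fn1 stood at 278.4 and 419.9 CPM in the Nkx2-5Cre libraries against 79.7 (-2.01 ± 0.30, adjusted p = 0.00162). Nid1 was at 22.2 and 65.3 CPM against 1.3 (-4.02 ± 0.77, adjusted p = 0.0149), Col18a1 at 524.7 and 498.4 against 147.4 (-1.71 ± 0.21, adjusted p = 0.000267), and Fbn1 at 19.7 and 41.3 against 4.9 (-2.25 ± 0.46, adjusted p = 0.0228). For each of the 4 genes the Isl1Cre library was the lower, below both others. Without Nkx2-5Cre E9.25 replicate 2, Nid1 (-3.25, adjusted p = 0.147) and Fbn1 (-1.73, adjusted p = 0.195) were no longer called.

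Cdh5 cells were 9 of 91 and 12 of 93 cells in the Nkx2-5Cre E9.25 libraries (9.89%, exact 95% interval 4.62% to 17.95%, and 12.9%, 6.85% to 21.45%) and 2 of 91 in Isl1Cre (2.2%, 0.27% to 7.71%). The summed level of the 10 endothelial markers was 218.8 and 309.4 CPM against 43.7. In Nkx2-5Cre E9.25 the Cdh5 cells, 11.4% of cells, held 44.72% of the summed Fn1 level, 41.33% of Nid1, 38.23% of Col18a1, 36.51% of Fbn1 and 58.84% of Col3a1. The rest, 5.42% of cells there, held a further 25.39% of Fn1, 21.77% of Nid1, 18.75% of Col18a1, 24.69% of Fbn1 and 16.15% of Col3a1, and the Isl1Cre E9.25 library had 0 cells of the rest. Within Tnnt2 cells, the E9.25 levels of Fn1 were 76.5 and 153.2 CPM against 58.2, and those of Col18a1 273.4 and 216.1 against 126.5. The differences there were -0.85 for Fn1, -0.91 for Col18a1, -3.43 for Nid1 and -1.72 for Fbn1, with adjusted p of 0.845, 0.299, 0.468 and 0.945; none of 30 genes was called, where 0.105% of all were, and 3 had an unadjusted p under 0.05. Sorting and picking by hand can set shares of cells, and a mean over cells alone cannot tell fewer Cdh5 cells from less RNA in each. In Isl1Cre E9.25 the 2 Cdh5 cells held 24.62% of the summed Fn1 level, 64.29% of Nid1, 16.18% of Col18a1 and 39.16% of Fbn1. These are too few cells to compare levels per cell between the lineages.

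**Figure D4:**
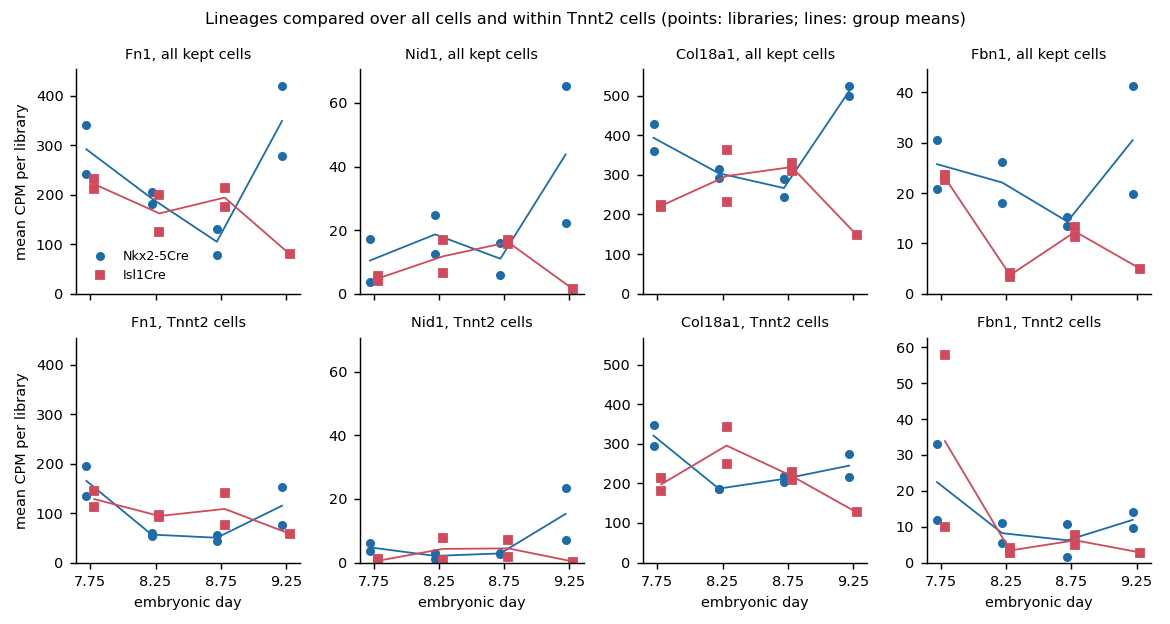
Mean CPM per library against embryonic day for Fn1, Nid1, Col18a1 and Fbn1, over all kept cells (upper row) and over Tnnt2 cells (lower row); circles are Nkx2-5Cre, squares Isl1Cre and lines join group means. At E9.25 Fn1 lies at 278.4 and 419.9 against 79.7 CPM over all cells and at 76.5 and 153.2 against 58.2 in Tnnt2 cells.

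At E7.75, 4 genes not called at E9.25 differed between the lineages, with Col18a1 at both stages. None of 31 was higher in Isl1Cre and 5 were lower, where 3.33% of all genes were higher and 3.8% lower. Col5a1 was at 60.6 and 51.4 CPM in Nkx2-5Cre against 19.0 and 19.1 (-1.46 ± 0.21, adjusted p = 0.000256). Emilin2 was at 38.9 and 46.5 against 14.7 and 18.0 (-1.29 ± 0.22, adjusted p = 0.00114), and Col2a1 at 254.1 and 171.8 against 90.6 and 115.5 (-0.98 ± 0.17, adjusted p = 0.00155). Agrn was at 68.2 and 76.2 against 32.9 and 25.7 (-1.24 ± 0.23, adjusted p = 0.00217), and Col18a1 at 359.9 and 427.5 against 224.9 and 219.1 (-0.77 ± 0.17, adjusted p = 0.00946), a call lost without either Isl1Cre library or Nkx2-5Cre replicate 2 (largest adjusted p = 0.116). The groups did not overlap for any of the 5. Tnnt2 cells made up 41.76% and 36.17% of the Nkx2-5Cre libraries and 17.78% and 27.06% of the Isl1Cre ones. In Tnnt2 cells alone, 8 of 30 were lower in Isl1Cre and 0 higher, against 4.84% and 3.02% of all genes. Col5a1 (-1.53, adjusted p = 0.00767), Emilin2 (-1.01, adjusted p = 0.0146) and Agrn (-1.09, adjusted p = 0.0292) were among them, Col2a1 (-0.54, adjusted p = 0.12) and Col18a1 (-0.61, adjusted p = 0.0544) were not. The other 5 were Col1a1, Col4a1, Col6a1, Hspg2 and Sparc. The Isl1Cre classes held only 16 and 23 cells. Col1a1 and Col6a1 were near the floor, at 0.0 to 6.79 and 0.0 to 9.51 CPM over the Tnnt2 classes of the 4 E7.75 libraries. A gene this low could reach the 5 CPM needed for a test through the lineage where it was higher. Hspg2 was at 0.17 to 26.75 CPM over the same classes, so its lowest class was near the floor as well.

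At E8.25, 1 of 31 genes was higher in Isl1Cre and 3 lower, against 2.5% and 2.61% of all genes. Col1a1 stood at 5.8 and 7.1 CPM in the Nkx2-5Cre libraries and at 18.7 and 23.2 in those of Isl1Cre (1.52 ± 0.43, adjusted p = 0.0439). Fbn1 was at 18.1 and 26.1 against 3.2 and 4.2 (-2.31 ± 0.38, adjusted p = 0.0017), Tnc at 9.1 and 15.7 against 1.6 and 2.8 (-2.07 ± 0.49, adjusted p = 0.0181), and Col4a1 at 98.6 and 105.7 against 45.9 and 63.1 (-0.94 ± 0.21, adjusted p = 0.0146). The groups did not overlap, but only Fbn1 kept its call whichever library was left out. Tnnt2 cells made up 87.23% and 79.57% of the Nkx2-5Cre libraries and 60.22% of each Isl1Cre one. The rest averaged 6.96% and 34.41% of cells in Nkx2-5Cre and Isl1Cre. Cdh5 cells averaged 9.1% and 2.69% and held 60.79% and 14.06% of the summed Fbn1 level. The part of this makeup in the differences was not tested. In Tnnt2 cells none of 30 was called, where 0.608% of all genes were, and 5 had an unadjusted p under 0.05. In the Isl1Cre E8.25 libraries Col1a1 was at 34.7 and 40.1 CPM in the rest and at 11.4 and 13.3 in Tnnt2 cells.
At E8.75 no matrix gene was called with limma or edgeR and 1 with DESeq2, where limma called 0.319% of all genes; 7 had an unadjusted p under 0.05. In Tnnt2 cells none was called either, against 0.0665% of all genes, and 5 had an unadjusted p under 0.05. Blood markers stood at 1409.1 and 1175.6 CPM in the Nkx2-5Cre E8.75 libraries, and their part in these values was not tested.

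Within Tnnt2 cells the lineage average held 1 call among 30 genes, Sparc (-0.40 ± 0.08, adjusted p = 0.0147), with none higher, where 1.57% of 10524 genes were higher and 1.34% lower. Sparc was at 168.6 and 155.1 CPM, 245.2 and 235.9, 260.6 and 229.2, and 324.8 and 305.6 over the Nkx2-5Cre stages. The Isl1Cre libraries were at 89.5 and 94.2, 173.8 and 198.5, 187.3 and 206.6, and 267.1, below both Nkx2-5Cre libraries at each stage. The adjusted p was 0.0534 without Nkx2-5Cre E8.75 replicate 1, and the call was also lost without Nkx2-5Cre E9.25 replicate 1.

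With stage, 4 of 30 genes rose and none fell in the Tnnt2 cells of Nkx2-5Cre, against 7.72% and 6.05% of all genes: Tnc (2.89 ± 0.34, adjusted p = 3.6e-05), Col3a1 (1.51 ± 0.38, adjusted p = 0.0141), Col4a2 (0.97 ± 0.17, adjusted p = 0.00124) and Sparc (0.58 ± 0.10, adjusted p = 0.000867). The call of Col3a1 was lost without E7.75 replicate 2 (adjusted p = 0.0617) or E9.25 replicate 2 (1.24, adjusted p = 0.148). Over the Tnnt2 classes of E7.75 in both lineages, Col3a1 was at 0.42 to 2.29 CPM and Tnc at 2.52 to 4.56. Both reached the 5 CPM needed for a test only through later stages, where Col3a1 was at 2.96 to 9.58 CPM. Tnc was at 2.9 and 2.5 CPM at E7.75 and at 74.6 and 112.8 at E9.25, and its call remained without the E7.75 libraries. In Isl1Cre, 9 rose and 2 fell, against 8.58% and 5.06% of all genes. The 9 were Hspg2 (2.58), Tnc (2.29), Col1a1 (1.61), Emilin2 (1.18), Col4a1 (0.92), Sparc (0.91), Col5a1 (0.86), Col4a2 (0.80) and Col2a1 (0.50), and Lama1 (-1.62) and Col18a1 (-0.49) fell. The Col2a1 call was lost in 10 of 15 fits that left out 1 library. Without Isl1Cre E7.75 replicate 1 Col2a1 was at 0.28, Col5a1 at 0.47 and Lama1 at -1.18, none called, and without E7.75 replicate 2 Hspg2 was at 1.70. The lowest level of Hspg2 in a Tnnt2 class of E7.75 was 0.17 CPM, near the floor. Without the E9.25 library Hspg2 was at 4.10, Col1a1 at 3.76, Emilin2 at 1.92, Col5a1 at 1.74 and Col2a1 at 1.03. Without the E7.75 libraries 2 of these 11 remained, and Col1a1, Emilin2 and Col5a1 turned to -0.69, -0.21 and -0.09. Col18a1 turned to 0.06 without the E9.25 library.

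Other genes of the matrix were taken as 4 lists, whose counts stand against 13.2% of all genes rising and 11.6% falling in Nkx2-5Cre and 13% and 10.2% in Isl1Cre. Serpinh1, the chaperone HSP47 that folds procollagen in the endoplasmic reticulum, rose in Nkx2-5Cre (0.95 ± 0.10, adjusted p = 1.41e-06) and Isl1Cre (0.92 ± 0.12, adjusted p = 1.05e-05). P4ha2, a subunit of the prolyl hydroxylase that stabilises collagen, rose by 1.35 ± 0.16 and 0.70 ± 0.19, and the cross-linking enzyme gene Loxl2 fell in both (-0.60 and -0.73). Of 19 collagen processing genes tested, 2 rose and 1 fell in Nkx2-5Cre, and 3 rose and 2 fell in Isl1Cre. Of 13 proteases and inhibitors, 1 rose in Nkx2-5Cre, while 4 rose and 3 fell in Isl1Cre, among them the gelatinase gene Mmp2 (-2.25 ± 0.35, adjusted p = 8.79e-05). Of 15 receptors other than integrins, 1 rose and 2 fell in Nkx2-5Cre, and 5 rose and 1 fell in Isl1Cre. Of 21 other collagens and matrix proteins, 6 rose and 2 fell, and 5 rose and 1 fell. In Cdh5 cells of 9 libraries, 2 of 15 receptors were higher and 9 lower than in Tnnt2 cells, against 11.3% and 18.9% of all genes, with a median of -1.35 against -0.21 over all genes. A receptor low in Cdh5 cells could enter through Tnnt2 cells alone. Whether these genes reached 5 CPM in the Cdh5 classes was not checked, so no conclusion is drawn from this count and median or from the differences below. The receptors that were lower included the dystroglycan gene Dag1 (-1.63 ± 0.32), the collagen receptor gene Ddr1 (-2.91 ± 0.47) and the laminin receptor gene Bcam (-2.81 ± 0.48).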

How the data were processed

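Per the labels' protocols, single heart cells were sorted by FACS or only digested with trypsin, picked by hand, and read by a Smart-seq2 variant with cell barcodes, molecular identifiers and capture of 3′ ends; the labels do not say which library was made which way. Tools listed in the submitters' processing notes, with no role stated, are TopHat2 2.0.12, HTSeq and CASAVA 1.8, and the build listed is mm10. No source used here says whether counting used strand, so antisense overlaps cannot be told apart. The authors deposited CPM per cell for 23154 genes. Within a tolerance of 0.1 of the value of 1 count, 100% of the values worth up to 20 counts came out whole in each library, so counts were recovered for filtering, thinning and count models; whether they are reads or molecules is not stated. The planned unit was counts, and because the deposited values are CPM the tests were run on CPM.

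Cells with at least 2000 counts and 1000 genes were kept. Thinning to 5000 counts used the 1282 kept cells with at least that many counts. No doublet caller was run on these picked cells. Each library, or class of at least 10 cells in a library, was averaged, TMM-scaled (factors 0.955 to 1.042) and fitted in R 4.3.3 with limma 3.58.1, using log2 of the mean CPM plus 1 and a trended empirical Bayes variance, for genes of at least 5 CPM in 2 units. The pseudocount of 1 understates changes of low genes. The library fit had 8 group means and 7 residual degrees of freedom, and takes the lone E9.25 library of Isl1Cre to have the spread of the other groups. Class comparisons kept the library as a block (1, 5 and 8 residual degrees of freedom for the Cdh5, rest and 5-cell Cdh5 comparisons). The model was checked on simulated data. Alternatives were edgeR 4.0.16 and DESeq2 1.42.0 on summed recovered counts, thinning to 5000 counts, a pseudocount of 10, other gates and filters, and leaving out libraries; the comparisons of lineages within Tnnt2 cells at single stages and the leave-out of the 5-cell comparison were added after seeing the data. The genes described, the lists and the choice of tests were made with earlier results of these data known. Values are given for genes called in a comparison (at most the 12 largest changes) and for the basement membrane genes Col4a1, Col4a2, Lama1, Lamb1, Lamc1, Nid1 and Hspg2, with Fn1, Sparc, Postn, Col1a1 and Col3a1. Of 124 genes in the lists of related matrix genes, 122 were found. Sequences are RefSeq's (GRCm38.p6), and exons were taken from GENCODE vM21. Epicardial, mural, mesenchymal and neural marker lists were read too: over libraries they summed to 49.9 to 222.3, 43.5 to 117.2, 49.5 to 259.6 and 0.2 to 18.0 CPM.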

Additional observations from a re-analysis of the deposited data

Results flagged for a closer look

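Of the values tested, 3 matrix genes had a slope per day that differed between the lineages by the test of the difference itself (limma, adjusted p under the threshold). Col2a1 had an Isl1Cre slope larger by 1.22 on the log2 scale per day, Emilin2 by 1.18 (1.175) and Col5a1 by 1.13. All 3 were lower in both Isl1Cre E7.75 libraries than in both Nkx2-5Cre ones, and the share of Tnnt2 cells was 17.78% and 27.06% against 36.17% and 41.76% in those libraries. Leaving out any 1 library kept all 3 calls, but without Isl1Cre E9.25 the differences were 2.02, 2.17 and 1.94, and without the E7.75 libraries that of Col2a1 alone was called (1.06).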

How the results depend on the processing

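Counts are of the matrix genes called. Over all alternatives, 261 of 315 counts stayed within 1.5 times the one reported. Of 1942 gene values, 1616 kept their direction and call, 313 lost the call and 13 changed direction. With cells thinned to 5000 counts the calls were 1 for the lineage average, 3 at E7.75, 0 at E8.25, 8 for the Isl1Cre slope, 7 for the Nkx2-5Cre slope, 1 for their difference, 8 for Cdh5 cells, 2 for the rest, and 0 and 2 for the lineage average and the Isl1Cre slope in Tnnt2 cells; thinning leaves fewer counts. Pooling the libraries of a group, which leaves 1 value per group, gave 0 for the lineage average, 3 and 0 for the Isl1Cre and Nkx2-5Cre slopes and 0 for their difference. Without the E7.75 libraries there were 3 for the lineage average, 3 and 1 for these slopes and, in Tnnt2 cells, 0, 2 and 1 for the lineage average and the Isl1Cre and Nkx2-5Cre slopes. With Tnnt2 cells only, E7.75 had 8, E8.25 had 0, E9.25 had 0 and the slope difference 1, that of Col4a1 (1.20), which is not among the 3 reported. In the fits of Tnnt2 cells a gate of 1000 CPM gave 0 for the lineage average and 7 for the Nkx2-5Cre slope, and a gate of 4000 CPM gave 2 and 1 for the Isl1Cre and Nkx2-5Cre slopes and 3 for the rest. On summed counts edgeR gave 2 for the lineage average, 1 at E9.25, and 0 and 7 for the lineage average and the Nkx2-5Cre slope in Tnnt2 cells; DESeq2 gave 1 at E8.75 and 5 for the slope difference. Without the filter on cells there were 1, 3 and 0 for the lineage average, E7.75 and the lineage average in Tnnt2 cells, and without the filter on low values 3 and 3 for the averages and 1 at E8.25. A pseudocount of 10 gave 1 at E8.75, and the rest had 4 without the library block. For settings whose construction does not show it, the cause was not tested.

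Leaving out 1 library at a time gave 3 to 7 for the lineage average, 4 to 5 at E7.75, 1 to 5 at E8.25, 0 to 0 at E8.75, 2 to 4 at E9.25, 8 to 12 for the Nkx2-5Cre slope, 11 to 14 for the Isl1Cre slope, 3 to 4 for their difference, 4 to 8 for the rest, and, in Tnnt2 cells, 0 to 2 for the lineage average, 9 to 12 for the Isl1Cre slope and 3 to 5 for the Nkx2-5Cre slope. Directions turned for Fn1 in the lineage average (-0.51 to 0.099 over the libraries left out) and Col18a1 in the Isl1Cre Tnnt2 slope (-0.544 to 0.055), both without Isl1Cre E9.25. They turned in that slope for Col1a1 (-1.07 at the 4000 gate, -0.69 without E7.75), Emilin2 (-0.58 and -0.21) and Col5a1 (-0.09 without E7.75), and at the 4000 gate for Lamb1 in the rest (-0.17). In all cells without E7.75 they turned for Fbn1 in Isl1Cre (0.43) and for Emilin2 (-0.64), Nid2 (-0.16) and Agrn (0.02; 0.10 thinned) in Nkx2-5Cre. With the replicate number as a block the slopes had 11 and 13 calls, and no call was lost; deviations of same-numbered libraries correlated at -0.031 to 0.166 (median 0.018, 21 pairs of groups), so the numbers do not pair them. No value could be had for Cdh5 cells with 1 of the 2 libraries left out, 20 cells or a gate of 1000 CPM, for E9.25 without the Isl1Cre library, or for single stages when pooled. Genes under about 5 CPM are limited by depth.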

Other observations

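Chains that assemble into 1 trimer or network were set against each other across the cells of each library, as a description. After thinning to 5000 counts, Spearman's rho between Col4a1 and Col4a2 had a median of 0.05 over 15 libraries (lowest -0.11, highest 0.37). Lamb1 with Lamc1 had 0.02, Col1a1 with Col1a2 -0.02 and Col5a1 with Col5a2 -0.02. The cells of a library share its depth and makeup, and at such sparse counts these values are no finding.

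In the Nkx2-5Cre E8.25 replicate 1 library, the rest (5 cells) had Lum at 39.7 CPM and Sparc at 1015.6 CPM. Lum was at 0 in the rest of 4 of the 9 libraries with at least 5 such cells. In the rest of Nkx2-5Cre E9.25 replicate 2 (6 cells), Fn1 was at 1349.3, Nid1 at 178.9 and Col18a1 at 1731.7 CPM, within the range of Cdh5 cells.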
